A study of Mus musculus with 6 samples.

Results

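The ITAM costimulation genes of osteoclasts were followed in RNA-seq data of bone marrow–derived macrophages (BMMs) treated with DASA-58, a compound that activates pyruvate kinase M2 (PKM2), or with its solvent DMSO. The 9 genes were listed by symbol for their known roles: the receptor Oscar, the adaptors Tyrobp and Fcer1g, the inhibitory receptor Pirb, the kinases Syk, Btk and Tec, the phospholipase Plcg2 and the linker Blnk. The choice was made with earlier results of these data known. The members are 9 of the 23504 genes in the table, and all 9 were among the 10965 genes tested. The BMMs came from male C57BL/6 mice of 6 to 8 weeks, with no genetic change, and each group had 3 libraries, taken after 3 days. The study describes RANKL induction of both groups in one place, whereas another passage states RANKL for the DASA-58 group alone. The compound also appears as DASA-48, and no concentration was given for this experiment. The sources used here do not say whether the 3 libraries of a group came from separate mice or cultures, so the p-values measure only the spread between these libraries, which may be technical.

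Osteoclast formation needs RANKL and, beside it, a costimulatory signal through an immunoreceptor tyrosine-based activation motif (ITAM). OSCAR, a collagen receptor, and TREM2 have short cytoplasmic tails and signal through FcR gamma (Fcer1g) and DAP12 (Tyrobp), the adaptors that carry the ITAM. Once its tyrosines are phosphorylated by Src family kinases, the motif binds SYK. SYK, with BTK, TEC and the linker BLNK, then activates phospholipase C gamma 2, which releases calcium and leads to calcineurin and the transcription factor NFATc1. PIR-B (Pirb) carries inhibitory motifs that recruit phosphatases and restrains this signal.

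The motif itself is shown because it is the feature that sets the adaptors apart from the receptors. An ITAM reads as a tyrosine, any pair of residues and a leucine or isoleucine, repeated after a gap of 6 to 12 residues. The coding sequences below are from GENCODE release M21 on GRCm38, written 5′ to 3′ on the coding strand, with the tyrosine and leucine or isoleucine codons in capitals.
Tyrobp: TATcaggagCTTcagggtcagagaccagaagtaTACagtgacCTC
Fcer1g: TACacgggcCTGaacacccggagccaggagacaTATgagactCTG
The Tyrobp motif covers codons 92 to 106 of 114 and lies within chr7:30415670-30417382 on the plus strand. In Fcer1g it covers codons 65 to 79 of 86, within chr1:171229889-171230072 on the minus strand. Both stretches have a gap of 7 codons and are split by an intron between exons 4 and 5 of 5. Neither Oscar, with 271 codons, nor Pirb, with 841 codons, held the pattern. Among 21584 genes with a coding sequence, 1436 (6.65%) held the activating pattern somewhere, so a match alone names no adaptor.

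In the comparison of DASA-58 with DMSO, Oscar and Blnk were lower and no member was called higher. Oscar, the receptor, fell to 51.5% of its DMSO mean, and Blnk, the linker, to 82.8%. The adaptors Tyrobp and Fcer1g and the kinase Tec had means of 108.5%, 111% and 112.5% of DMSO and missed the threshold. Pirb, Syk, Plcg2 and Btk had means between 95.8% and 101.3% of DMSO.

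Values are FPKM, fragment counts scaled to gene length and library depth, and each gene was compared with limma on log2(FPKM + 1) with an adjusted p under 0.05 as the threshold. With 2 of 9 members called lower, the count stands beside a background of 7.28% of all genes tested. The members were chosen with earlier results of these data known, so their counts are a description. No member was called higher (limma), beside 4.24% of all genes. At an unadjusted limma p under 0.05 there were 5 members, of which 3 were higher. The share of all genes at that threshold was not computed, so these counts cannot be judged against a background. Voom weights on recovered fragments called 3 of the 9 members higher, beside 641 of 9579 genes. In 3 of the 9 members (33.3%) the groups did not overlap, Oscar and Blnk lower and Tec higher, and the same held for 33.4% of all genes tested. The median log2 fold change was −0.024 over the members and −0.028 over all genes tested.

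**Figure D1:**
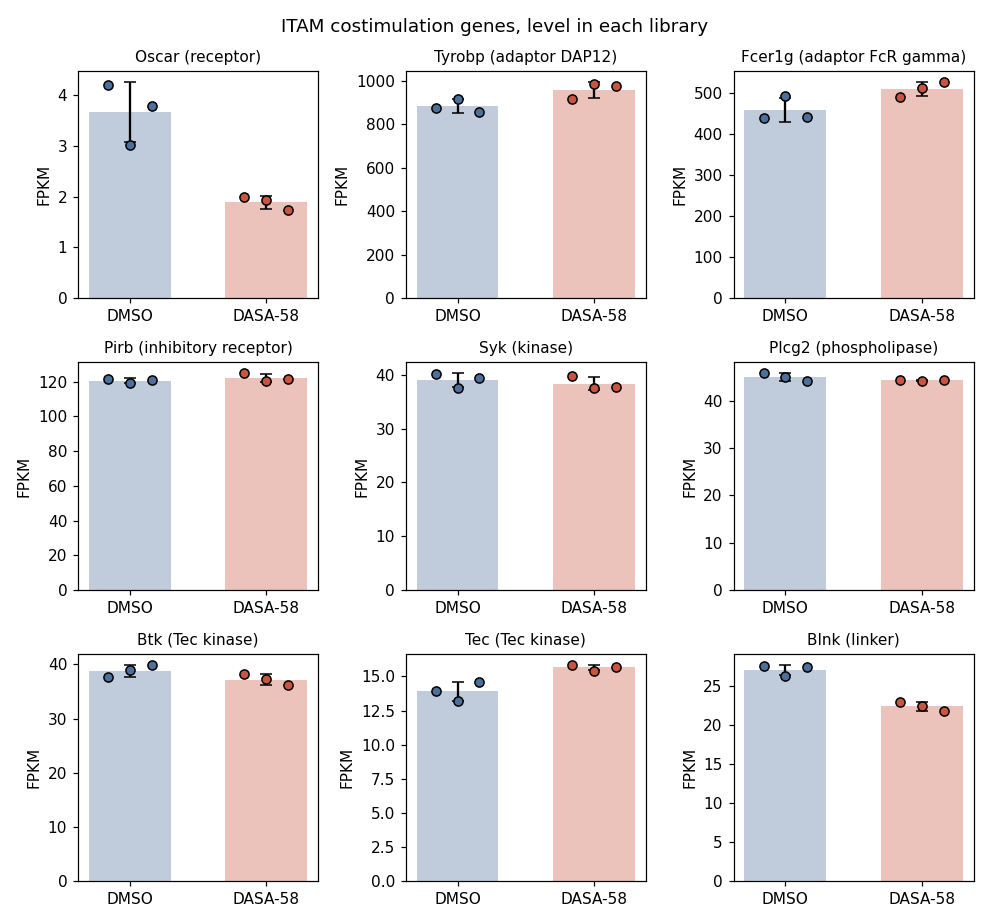
FPKM of each of the 9 members (vertical axis, from 0, with its own scale in each panel) in the 3 DMSO and 3 DASA-58 libraries. Points are libraries, bars are group means and whiskers are SD. Oscar lies between 3.02 and 4.19 with DMSO and between 1.74 and 1.98 with DASA-58, whereas Pirb lies between 119.4 and 125.0 in all 6 libraries.

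Oscar (ENSMUSG00000054594, on GRCm38 at chr7:3609813-3616157, minus strand) encodes the osteoclast-associated receptor, which binds collagen and pairs with FcR gamma. Its level was 4.19, 3.02 and 3.78 FPKM with DMSO and 1.98, 1.93 and 1.74 FPKM with DASA-58. The groups did not overlap, all DASA-58 libraries being the lower ones, and DMSO replicate 2 was the lowest of its group. The means were 3.66 ± 0.596 and 1.89 ± 0.128 FPKM (SD, n = 3 each), a log2 fold change of −0.68 (SE 0.098, 95% confidence interval −0.91 to −0.46, limma adjusted p = 0.00484). On the plain FPKM scale the log2 ratio of the means was −0.96, since the added 1 FPKM shrinks the change of a gene at this level. The change ranked 64 of 10965 by absolute size, although the level ranked only 8795.

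These values rest on 105 to 142 recovered fragments per DMSO library and 61 to 69 per DASA-58 library. Counting alone gives an error of 8.96% and 12.4% per library, beside a spread between libraries of 16.3% and 6.80%. Without variance shrinkage the adjusted p of Oscar was 0.0611, and a pseudocount of 5 gave a log2 fold change of −0.33. In bulk RNA, fewer cells that express a gene and less RNA per cell cannot be told apart. The study itself picked Oscar for display from these libraries, so its fall is not independent evidence.

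The osteoclast markers, which the study also displayed from these libraries, moved with Oscar. Of the 6 listed (Ctsk, Acp5, Mmp9, Itgb3, Calcr and Atp6v0d2), 5 were tested and these 5 were lower, and the summed level of the 6 was 737 to 791 FPKM with DMSO and 425 to 442 FPKM with DASA-58. Apart from these libraries, the study reported lower CTSK and TRAP (Acp5) with DASA-58 by RT-qPCR and Western blotting. It reported the same after knockdown of PKM2. Of 5 macrophage markers, Adgre1 and Cd68 were higher, with log2 fold changes of 0.26 and 0.14. The label BMM is matched by the macrophage markers Lyz2 between 14701 and 17767 FPKM and Csf1r between 319 and 346 FPKM. Their part in the change of Oscar was not tested.

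Blnk (ENSMUSG00000061132, chr19:40928927-40994535, minus strand) encodes the linker that brings BTK and TEC to phospholipase C gamma 2, and is known from B cells. The DMSO libraries held 27.5, 26.3 and 27.4 FPKM and the DASA-58 libraries 22.9, 22.4 and 21.8 FPKM. The groups did not overlap, and each was narrow. The mean fell from 27.0 ± 0.673 to 22.4 ± 0.592 FPKM (SD, n = 3 each), with a log2 fold change of −0.26 (SE 0.035, 95% confidence interval −0.34 to −0.18, limma adjusted p = 0.00358), from 2445 to 3021 fragments per library. Blnk passed the threshold under all 18 alternatives tried. Of 4 B cell markers in the table, Ms4a1 was at 0 or 1 fragment and Cd79a at 0.075 to 0.362 FPKM. Cd79b, which made up most of the sum, was at 1.64, 1.85 and 1.69 FPKM with DMSO and at 2.15, 2.07 and 1.73 FPKM with DASA-58, with overlapping groups. The summed level of the 4 was 1.80 to 2.13 FPKM with DMSO and 2.19 to 2.45 FPKM with DASA-58, and the part of B cells in the change of Blnk was not tested.

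The promoters of Oscar and Blnk are shown because these were the members that fell. The sequences are RefSeq stretches on GRCm38.p6 from 250 bases before the annotated start to 50 bases after it, 5′ to 3′ on the strand of the gene, with matches in capitals to GGAAA (NFAT core), GAGGAA (PU.1), TGANTCA (AP-1) and CACGTG (E-box of MITF), searched on both strands.
Oscar, chr7:3616108-3616407: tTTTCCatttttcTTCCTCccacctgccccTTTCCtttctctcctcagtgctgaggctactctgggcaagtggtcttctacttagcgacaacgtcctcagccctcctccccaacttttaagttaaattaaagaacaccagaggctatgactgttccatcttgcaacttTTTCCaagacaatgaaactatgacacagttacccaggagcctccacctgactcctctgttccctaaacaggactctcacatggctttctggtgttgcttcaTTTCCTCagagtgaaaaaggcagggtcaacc
Blnk, chr19:40994172-40994471: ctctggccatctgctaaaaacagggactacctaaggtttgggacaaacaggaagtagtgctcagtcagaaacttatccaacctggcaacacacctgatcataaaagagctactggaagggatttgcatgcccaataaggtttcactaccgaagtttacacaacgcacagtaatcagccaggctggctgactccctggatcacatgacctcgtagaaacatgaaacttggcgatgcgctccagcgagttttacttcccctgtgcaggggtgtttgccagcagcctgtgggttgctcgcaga
Oscar held 4 matches to GGAAA and 2 to GAGGAA, of which the last GAGGAA shares bases with the last GGAAA, and 0 matches to TGANTCA or CACGTG. Blnk held 0 matches to all 4 motifs in this window. Of 32851 promoters of this length, 61.3% held GGAAA, 28.3% GAGGAA, 7.81% TGANTCA and 7.15% CACGTG, so the letters found in Oscar are common. A match is a description of letters and not a binding site, and no binding data were analysed. Of the members that were not called, Fcer1g, Pirb, Syk, Plcg2 and Btk held GGAAA, and Pirb (3 matches), Syk and Btk held GAGGAA. Plcg2 held CACGTG. Syk also had an entry without a match, and Tec held 0 matches to all 4 motifs. Tyrobp had no entry in the promoter table.

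The adaptors stood at the other end of the scale from the receptor. Tyrobp (ENSMUSG00000030579, chr7:30413760-30417585, plus strand) had 874, 919 and 859 FPKM with DMSO and 916, 986 and 975 FPKM with DASA-58, and DMSO replicate 2 overlapped DASA-58 replicate 1. Its log2 fold change was 0.12 (SE 0.038, 95% confidence interval 0.030 to 0.20, limma adjusted p = 0.0857). Fcer1g (ENSMUSG00000058715, chr1:171229572-171234365, minus strand), which serves OSCAR and the Fc receptors, had 440, 493 and 443 FPKM with DMSO and 492, 512 and 527 FPKM with DASA-58. Here too DMSO replicate 2 was high and lay above the lowest DASA-58 library. The log2 fold change of Fcer1g was 0.15 (SE 0.048, 95% confidence interval 0.043 to 0.27, adjusted p = 0.0797), and without DMSO replicate 2 it was 0.21 with an adjusted p of 0.0142 (limma). Fcer1g passed under 4 of 18 alternatives, with limma adjusted p between 0.00272 and 0.249. Tyrobp passed under 2 of 18, with limma adjusted p between 0.0085 and 0.305. Neither adaptor had a lower mean with DASA-58, in contrast to Oscar.

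Tec (ENSMUSG00000029217, chr5:72755716-72868483, minus strand), a kinase that acts with BTK on phospholipase C gamma 2, had 13.9, 13.2 and 14.6 FPKM with DMSO and 15.8, 15.4 and 15.7 FPKM with DASA-58. All DASA-58 libraries were above all DMSO libraries. The means were 13.9 ± 0.710 and 15.6 ± 0.208 FPKM (SD, n = 3 each) and the log2 fold change was 0.16 (SE 0.043, 95% confidence interval 0.062 to 0.26), with a limma adjusted p of 0.0502 that lies just above the threshold. It passed under 7 of 18 alternatives, among them without DMSO replicate 3 (adjusted p = 0.0366), with adjusted p between 0.0181 and 0.134 over all 18.

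Btk (ENSMUSG00000031264, chrX:134542336-134583570, minus strand), the other TEC family kinase, had 37.7, 39.0 and 39.9 FPKM with DMSO and 38.3, 37.2 and 36.1 FPKM with DASA-58. The groups overlapped, with a log2 fold change of −0.061 (95% confidence interval −0.14 to 0.021, limma adjusted p = 0.310). Syk (ENSMUSG00000021457, chr13:52583173-52648792, plus strand), the kinase that docks on the phosphorylated ITAM, had 40.1, 37.6 and 39.4 FPKM with DMSO and 39.7, 37.6 and 37.8 FPKM with DASA-58. Its interval ran from −0.11 to 0.062 (adjusted p = 0.723). Plcg2 (ENSMUSG00000034330, chr8:117498291-117635142, plus strand), the enzyme that makes the calcium-releasing messenger, had 45.8, 45.0 and 44.2 FPKM with DMSO and 44.3, 44.1 and 44.5 FPKM with DASA-58, with an interval from −0.088 to 0.040 (adjusted p = 0.631). For these 3 genes no difference was detected, and the lower bounds limit a decrease to 0.14 on the log2(FPKM + 1) scale.

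Pirb (ENSMUSG00000058818, chr7:3711409-3720391, minus strand), the receptor that opposes the ITAM signal, had 121.9, 119.4 and 120.8 FPKM with DMSO and 125.0, 120.2 and 121.5 FPKM with DASA-58. The groups overlapped, and the interval of the log2 fold change ran from −0.043 to 0.079 (limma adjusted p = 0.707). Pirb belongs to a family of near-identical genes whose reads the counting could split. Its activating relative Pira2, which pairs with FcR gamma, was at 11.8, 13.5 and 13.0 FPKM with DMSO and 10.3, 12.4 and 10.8 FPKM with DASA-58, so both levels are uncertain. No member shared exon bases with another gene in the annotation used.

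**Figure D2:**
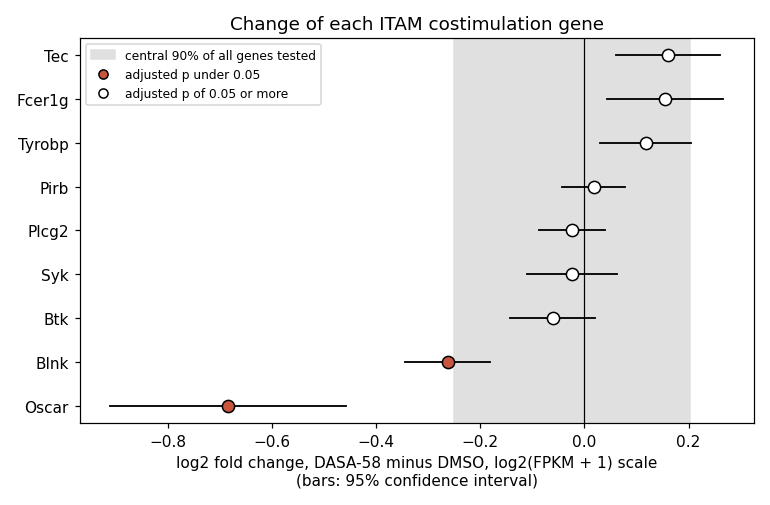
Log2 fold change of each member (horizontal axis, DASA-58 minus DMSO on the log2(FPKM + 1) scale) with its 95% confidence interval from limma, beside the central 90% of all 10965 genes tested, which runs from −0.251 to 0.203. Filled points have an adjusted p under 0.05. Oscar at −0.68 and Blnk at −0.26 lie below this band and the other 7 members lie inside it.

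FPKM is scaled to gene length, so the members were ordered by level. The length that gave whole fragments joins all annotated exons of a gene, so the order may also depend on the annotation. The order was the same with DMSO and with DASA-58, from Tyrobp over Fcer1g, Pirb, Plcg2, Syk, Btk, Blnk and Tec to Oscar. Only Syk and Btk, neighbours at 36.1 to 40.1 FPKM, had ranges that overlapped. Tyrobp ranked 32 of the 10965 genes tested and Fcer1g ranked 82, so the adaptors were among the most abundant transcripts. The Fcer1g level was 125 times that of Oscar with DMSO and 270 times with DASA-58.

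Ratios within a library do not depend on the scaling between libraries. The log2 ratio of Oscar to Fcer1g was −6.72, −7.35 and −6.87 with DMSO and −7.95, −8.05 and −8.24 with DASA-58. The receptor was lower relative to its adaptor in every DASA-58 library, with a difference of −1.10 on plain FPKM. Adding pseudocounts of 1 and 5 reduced its size to −0.84 and −0.48. The log2 ratio of Pirb to Oscar, the inhibitory over the activating receptor, was 5.06 ± 0.228 with DMSO and 6.02 ± 0.0916 with DASA-58, a difference of 0.96 that was 0.70 and 0.35 with these pseudocounts. For Tec to Btk the means were −1.48 ± 0.0713 and −1.25 ± 0.0422, a difference of 0.23. These 3 ratios did not overlap between the groups and each gave p = 0.1 in a two-sided exact permutation test, the smallest value that 3 against 3 allows, and 0.133 after adjustment over the 4 ratios tested. Oscar to Fcer1g and Pirb to Oscar both contain Oscar, so they largely restate its fall and are not separate results. The log2 ratio of group means was −0.96 for Oscar alone and 0.018 for Pirb alone. The ratio of Fcer1g to Tyrobp differed by 0.037 with overlapping groups (exact permutation p = 0.3).

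**Figure D3:**
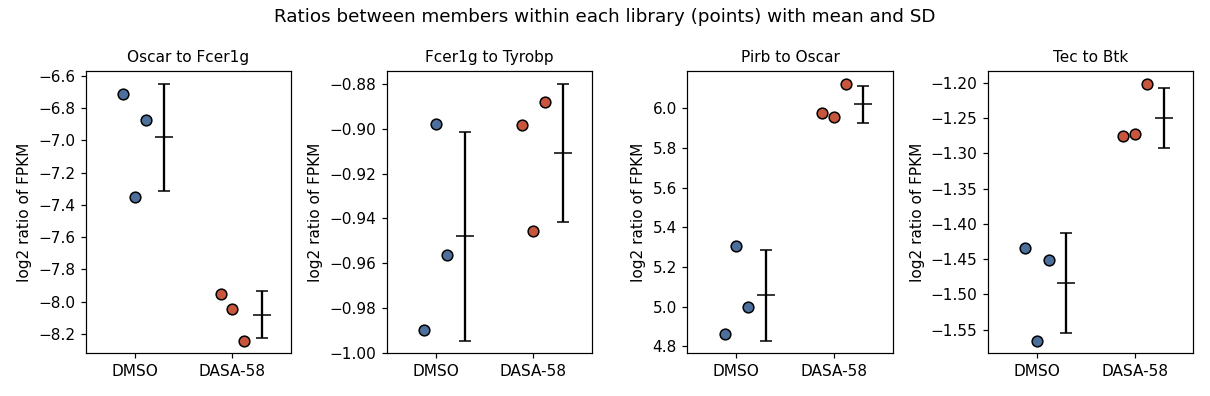
Log2 ratio of FPKM between pairs of members (vertical axis, not from 0, with its own scale in each panel) in each of the 6 libraries. Points are libraries, and the mark beside them gives the mean and SD. Oscar to Fcer1g runs from −7.35 to −6.72 with DMSO and from −8.24 to −7.95 with DASA-58, and Fcer1g to Tyrobp overlaps between the groups.

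Beyond the 9 members, 137 other genes of the ITAM pathway were listed in 6 groups, of which 133 were in the table and 114 were tested. Of these, 10 were lower (8.77%, beside 7.28% of all genes tested), 18 were higher (15.8%, beside 4.24%) and 86 were not called. The lists were chosen with earlier results of these data known, so these shares are a description. The median log2 fold change over the 114 genes was 0.032, beside −0.028 over all genes tested. Of the 18 higher genes, 9 were partner receptors, 4 inhibitors, 2 other kinases, 2 other linkers and effectors and 1 a ligand. The 10 lower genes were 3 calcium and NFAT genes, 3 other linkers and effectors, 2 inhibitors, 1 partner receptor and the kinase Src.

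Among the genes listed as partner receptors, 9 of 22 tested were higher (40.9%, beside 4.24% of all genes tested). In the same list 1 was lower (4.55%, beside 7.28%), and the median was 0.16. The list also holds Hcst (DAP10), itself an adaptor, and Clec7a (Dectin-1), which carries a motif of its own, and neither was called. It was chosen with earlier results of these data known, so the shares are a description. Clec4n, the lectin receptor Dectin-2 that pairs with FcR gamma, was at 61.8, 58.3 and 60.3 FPKM with DMSO and at 112.0, 108.5 and 110.6 FPKM with DASA-58. Its groups lay far apart, at a log2 fold change of 0.87 (SE 0.031, limma adjusted p = 8e-06). Clec4d, a related lectin and the receptor of the list with the highest level, rose from 399 ± 9.15 to 528 ± 11.4 FPKM (0.40, adjusted p = 2.07e-04). Fcgr3, an activating receptor for immunoglobulin G, rose from 125.7 ± 5.43 to 181.7 ± 4.53 FPKM (0.53, adjusted p = 2.08e-04). Trem2, the DAP12 partner best known in osteoclast precursors, rose from 99.6 ± 2.497 to 124.9 ± 3.49 FPKM (0.32, adjusted p = 9.81e-04). Clec4e (Mincle) was the receptor that fell, with a log2 fold change of −0.33. Siglec15, a DAP12 partner in osteoclasts, was at 1.41, 2.06 and 0.808 FPKM with DMSO and at 0.781, 0.808 and 1.003 FPKM with DASA-58, and its groups overlapped (adjusted p = 0.245). Of the 22 genes of this list, 18 had a log2 fold change above 0, the direction opposite to that of Oscar. The other higher receptors were Trem3, Sirpb1c, Cd300ld, Cd300c2 and Pilrb1, some of which belong to families of near-identical genes. Pira1, Pira6 and Pira12 were not analysed here.

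Of the ligands, 4 were tested and 1 was called, as higher (25%, beside 4.24% of all genes tested). Apoe, a ligand of TREM2, rose from 1014 ± 23.2 to 1402 ± 49.1 FPKM (log2 fold change 0.47, limma adjusted p = 2.04e-04) and was also the most abundant of the list. Col1a1, a collagen that OSCAR can bind, was at 23.2, 22.3 and 21.4 FPKM with DMSO and at 22.6, 23.5 and 23.0 FPKM with DASA-58, with overlapping groups. Stromal markers, of which Col1a1 is one, summed to 32.3 to 34.8 FPKM and 33.5 to 34.3 FPKM.

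The inhibitors had 2 lower (7.69%, beside 7.28% of all genes tested) and 4 higher genes (15.4%, beside 4.24%) among 26 tested. Cd200r1, an inhibitory receptor of myeloid cells, rose from 55.7 ± 0.416 to 66.8 ± 1.75 FPKM (0.26, limma adjusted p = 0.00170), and Pilra, which carries an inhibitory motif, rose from 18.0 ± 0.844 to 21.4 ± 0.227 FPKM. Cd300a and Lilrb4a were the other higher genes. Cd72, an inhibitory receptor best known on B cells, fell from 39.2 ± 1.41 to 33.5 ± 0.660 FPKM, and Dok3, an adaptor that dampens SYK signaling, was the other lower gene. Sirpa, the most abundant inhibitor, was at 508 ± 5.16 and 526 ± 5.15 FPKM and did not pass (adjusted p = 0.183). The phosphatases Ptpn6 (SHP-1) and Inpp5d (SHIP1), which act downstream of inhibitory receptors, had log2 fold changes of −0.0049 and 0.0037.

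Of 7 other kinases tested, Src was lower (14.3%, beside 7.28% of all genes tested) and Lyn and Ptk2b were higher (28.6%, beside 4.24%). Src, needed for the ruffled border of osteoclasts, was at 23.7, 22.3 and 22.2 FPKM with DMSO and at 15.8, 14.6 and 15.0 FPKM with DASA-58, well apart (−0.55, limma adjusted p = 3.37e-04). Lyn, another Src family kinase, rose from 40.0 ± 1.30 to 45.8 ± 0.688 FPKM (0.19), and Ptk2b (PYK2) from 28.8 ± 0.719 to 31.6 ± 0.557 FPKM (0.13, adjusted p = 0.0427).

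Among 27 other linkers and effectors, Pik3r5, Malt1 and Lcp2 were lower (11.1%, beside 7.28% of all genes tested). Higher were Prkcb and Pik3cg (7.41%, beside 4.24%). Pik3r5, a regulatory subunit of PI3K gamma, fell from 78.5 ± 0.722 to 62.4 ± 2.59 FPKM (−0.33, limma adjusted p = 0.00125), and its catalytic partner Pik3cg rose from 14.0 ± 0.271 to 15.997 ± 0.786 FPKM (0.18, adjusted p = 0.0330). Malt1, a scaffold protease on the path from ITAM receptors to NF-κB, fell from 7.06 ± 0.364 to 4.52 ± 0.375 FPKM (−0.55, adjusted p = 0.00179). Lcp2 (SLP-76), a linker related to Blnk, fell from 34.8 ± 0.760 to 31.1 ± 0.218 FPKM (−0.15, adjusted p = 0.0161). The lower genes thus included Lcp2 as well as the member Blnk. Prkcb, a protein kinase C, rose from 6.62 ± 0.386 to 8.33 ± 0.0991 FPKM. Rac2, the most abundant of the list, was at 139.7 ± 3.06 and 132.7 ± 3.68 FPKM (adjusted p = 0.164). The linker Lat was under the level for testing, with 40 to 49 fragments per DMSO library and 25 to 27 per DASA-58 library. Src and Malt1 are among the genes in the study's heatmap of differentially expressed genes from these libraries, so they too are not independent evidence.

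Of 28 calcium and NFAT genes tested, 3 were lower (10.7%, beside 7.28% of all genes tested, limma) and 0 were higher (beside 4.24%). Nfatc1, the transcription factor at the end of the pathway, was at 21.996, 20.3 and 20.2 FPKM with DMSO and at 15.7, 14.8 and 14.5 FPKM with DASA-58 (−0.45, adjusted p = 0.00116). The study also reported lower NFATc1 with DASA-58 by RT-qPCR and Western blotting. Orai2, a subunit of the store-operated calcium channel, fell from 25.9 ± 1.06 to 20.3 ± 0.768 FPKM (−0.34, adjusted p = 0.00274). Rcan1, a calcineurin regulator that NFAT itself induces, fell from 13.5 ± 1.03 to 10.5 ± 0.393 FPKM (−0.33, adjusted p = 0.00980). Calm2, the most abundant of the list, was at 402 ± 6.68 and 403 ± 5.55 FPKM. The other 25 genes were not called, and 13 of the 28 had a higher mean log2 value with DASA-58.

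**Figure D4:**
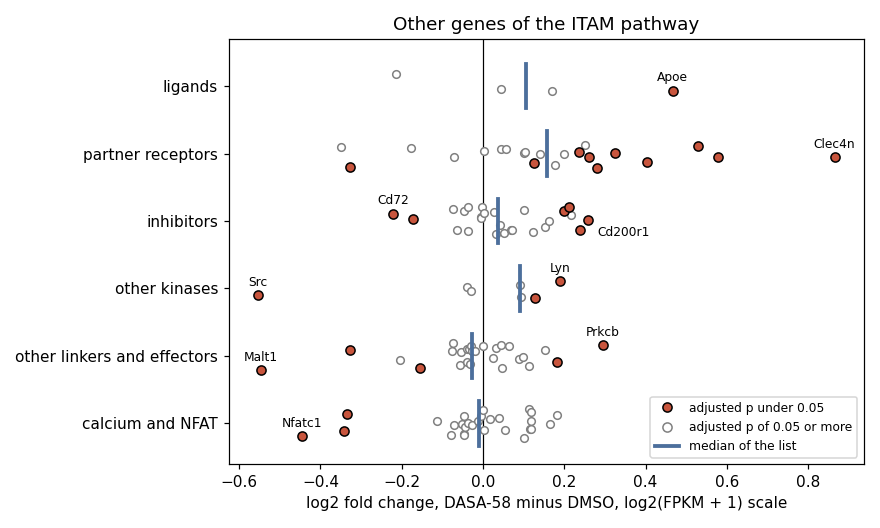
Log2 fold change (horizontal axis, DASA-58 minus DMSO on the log2(FPKM + 1) scale) of the 114 tested genes in the 6 lists of other ITAM pathway genes. Filled points have an adjusted p under 0.05 (limma), bars are list medians, and vertical scatter within a list carries no value. Partner receptors reach 0.87 at Clec4n, and the called calcium and NFAT genes lie between −0.45 and −0.33.

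Markers of other cells moved in part with these genes. Of 8 neutrophil markers 7 were tested, 4 were lower (S100a8, S100a9, Ngp and Camp), and the summed level of the 8 was 174 to 177 FPKM with DMSO and 137 to 143 FPKM with DASA-58, while the defining marker Ly6g was at 0 or 1 fragment. Pf4, listed for megakaryocytes, was at 397 to 439 FPKM with DMSO and 561 to 631 FPKM with DASA-58, while Itga2b, Gp9, Gp1bb and Gp6 were at 0.140 FPKM or less. The summed level of dendritic cell markers was at most 0.580 FPKM, of NK cell markers at most 0.879 FPKM, of mast cell or basophil markers at most 0.423 FPKM and of erythroid markers at most 0.287 FPKM. T cell markers summed to 5.34 to 5.92 FPKM, nearly all of it from Cd4. The part of these cells in the pathway genes was not tested.

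The genes whose pattern over the 6 libraries was most like that of Oscar were Cd200, Pgf, Cxcl10, Coq8a and Egr2. Likeness was the root mean square difference of log2(FPKM + 1), each gene centred on its DMSO mean, and ran from 0.064 for Cd200 to 0.098 for Egr2. Cd200, a surface ligand, was at 5.01, 4.17 and 4.42 FPKM with DMSO and at 2.61, 2.499 and 2.43 FPKM with DASA-58. In Egr2, a zinc finger transcription factor, the mean was 2.67 ± 0.149 and 1.39 ± 0.0817 FPKM. Pgf and Cxcl10, which encode a growth factor and a chemokine, had means of 55.2% and 57.3% of DMSO. DMSO replicate 2 was the lowest DMSO library in Oscar, Cd200, Pgf, Cxcl10, Coq8a and Egr2. These genes were picked for this pattern, so their values are a description.

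**Figure D5:**
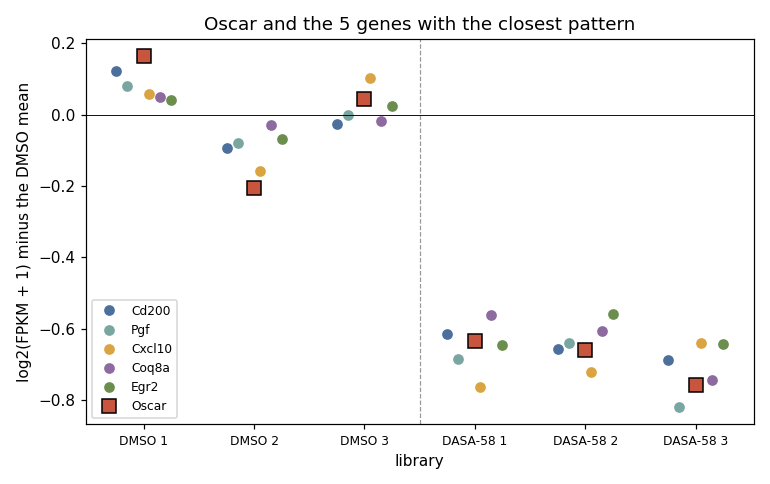
Log2(FPKM + 1) minus the mean of the DMSO libraries (vertical axis) for Oscar and the 5 genes closest to it, in each of the 6 libraries (horizontal axis). Each point is 1 gene in 1 library, shifted sideways for legibility. All 6 genes lie within 0.21 of 0 with DMSO and between −0.82 and −0.56 with DASA-58.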

How the data were processed

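RNA of BMMs was sequenced in 6 libraries, 3 with DMSO and 3 with DASA-58, grouped by the sample labels. The authors deposited FPKM values, in which fragments are divided by gene length and by library depth, in 1 table, and 0 value columns were left unused. The submitters' processing notes name HISAT2 2.1.0, HTSeq 0.6.0 and mm8 without roles, and annotation and strand are not given in the sources used here. With exon lengths of GENCODE M21 (GRCm38), which is not mm8, 21436 genes (91.2%) gave whole fragments in all libraries within 0.05 fragments, including all 9 members. The recovered depth was 18191560 to 18968556 fragments. A count of 0 allows 3 fragments, which covers counting error only. Of the identifiers, 23455 had a symbol and 49 had none.

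The comparison of DASA-58 with DMSO used limma 3.58.1 (R 4.3.3) on log2(FPKM + 1), a scale that understates the change of low genes. The fit used lmFit and eBayes with a trend over the 10965 genes whose mean reached 1 FPKM, with Benjamini-Hochberg adjustment over these genes, in all 6 libraries and without covariates. Ratios between members were tested with exact permutation over all splits of 3 against 3, computed in Python with numpy. The members and lists were chosen with earlier results of these data known. The genes named were the 9 members, of each pathway list the 3 with the smallest p among those called and the most abundant, and the 5 genes most like Oscar. A gene that this rule names is not reported here. Genes named outside this rule, such as Trem2, Clec4e, Siglec15, Col1a1, Dok3, Ptpn6, Inpp5d, Lcp2, Pik3cg and Lat, were named after their values were seen. The alternatives were other pseudocounts, filters, scalings and variance models, leaving out 1 library at a time, and a block for the replicate number. Voom weights on the recovered fragments were added after seeing the data. Promoters came from RefSeq, in which 8 of the 9 members had an entry. Figures were drawn with matplotlib 3.10.9 in Python 3.11.15, and tables with numpy 2.4.6 and pandas 2.3.3.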

Additional observations from a re-analysis of the deposited data

How the results depend on the processing

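Oscar was lower under all 17 alternatives that tested it (log2 fold change −0.94 to −0.33) and past the threshold in 16, the exception being no variance shrinkage (adjusted p = 0.0611), and Blnk passed in all 18 (−0.28 to −0.23). The count of members called lower was 1 with a mean of at least 5 FPKM, which left Oscar untested, and 1 without variance shrinkage. Beside these stood 844 of 7179 and 314 of 10965 genes tested. The count called higher was 1 with a pseudocount of 5, with centring on the median and with a trimmed mean of log ratios, 2 with a mean of at least 5 FPKM, and 3 with quantile normalization and with voom weights. In the same order, the all-gene counts were 471, 597 and 594 of 10965, 505 of 7179, 600 of 10965 and 641 of 9579. Leaving out 1 library gave 2 to 2 lower members, 0 to 1 higher, 8 to 11 lower pathway genes and 13 to 16 higher. Of all 10965 genes, 387 to 603 were then lower and 272 to 375 higher. Without DMSO replicate 2, Fcer1g passed (adjusted p = 0.0142), and without DMSO replicate 3, Tec passed (0.0366). Across all 18 alternatives, Tec passed in 7, Fcer1g in 4 and Tyrobp in 2. Without variance shrinkage, 6 pathway genes were lower and 7 higher, beside 314 lower and 227 higher of all 10965 genes. Voom weights called 28 pathway genes higher, beside 641 of 9579 genes. Over all genes, 314 to 1142 were lower and 227 to 641 higher across the alternatives, which tested 7179 to 23504 genes. The causes were not tested. The difference of the Oscar to Fcer1g ratio was −0.84 with a pseudocount of 1 and −0.48 with 5, and that of Pirb to Oscar was 0.70 and 0.35. Syk turned to 0.0018 with quantile normalization, 0.0030 with centring and 0.0011 with the trimmed mean, and Plcg2 to 0.0031 with centring and 0.0012 with the trimmed mean, with adjusted p of 0.959 to 0.989. Same-numbered libraries did not deviate together (correlations −0.016, 0.016 and −0.016, beside −0.046 to 0.061 for differently numbered libraries). Such values cannot show whether the libraries were paired by design. With the replicate block 2 members were lower, 0 higher, 10 pathway genes lower and 15 higher. Beside these, 579 of all 10965 genes were lower and 378 higher. Depth limits Oscar most, at 61 to 142 fragments per library.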
